A study of Homo sapiens with 9 samples.

Results

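The nuclear genes of the oxidative phosphorylation (OXPHOS) machinery were examined in Jurkat cells, a cell line from a human T cell leukaemia, on whole genome expression arrays. A gene was a member when its platform symbol was that of a subunit family of complexes I to V (NDUFA, NDUFB, NDUFC, NDUFS or NDUFV with a number, SDHA to SDHD, UQCR, CYC1, COX4 to COX8, or ATP5), with 1 subunit gene of complex I left out by the rule. This gave 78 of the 19775 genes that the arrays named singly, measured by 148 probe sets. The brightest probe set over the 9 arrays stood for each gene. Complex I had 31 members, complex II had 3, complex III had 7, complex IV had 18 and complex V had 19. The symbols picked 68 structural subunits and 6 tissue-restricted isoforms of complex IV. They also picked the assembly factor COX7A2L, the synthase inhibitor ATP5IF1 and the pseudogenes COX6A1P1 and ATP5MC2P1. SDHB and UQCRFS1 were not analysed here.

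All cells were grown in complete medium and handled in electroporation cuvettes, and their total RNA was extracted 4 h after the treatment. The nsEP group (3 arrays) received 100 nanosecond electrical pulses of 10 ns at 150 kV/cm. The heat shock group (3 arrays) was warmed in a water bath as a second kind of stress. The sham group (3 arrays) was handled like the nsEP group, but without power. No water bath hold without warming was described, so in heat shock against sham the warmth and the hold itself cannot be told apart. The labels call the arrays of a group biological replicates, but nothing else says that they came from separate cultures, so p-values measure the spread between these samples. A leukaemia line is a limited model of a resting T cell, and whole cultures were lysed, so fewer cells of a kind and less RNA per cell cannot be told apart.

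Complexes I to IV of the inner mitochondrial membrane pass electrons from NADH and succinate to oxygen and, except for complex II, pump protons. Complex V, the ATP synthase, lets the protons flow back and makes ATP. Most subunits are encoded in the nucleus and imported, a small core is encoded by mitochondrial DNA, and the nuclear genes are known to be coordinated by the factors NRF1 and GABP (an ETS protein) and by YY1 at their promoters. Proliferating T cells and leukaemia lines use both glycolysis and OXPHOS.

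The promoters of 5 members are shown because these genes mark the range of the results described below. NDUFB7 was the single member past the threshold in any comparison, UQCR11 is an example of the many members that stood higher in heat shock, SDHA stood level, and NDUFC1 and NDUFV2 stood lower in heat shock. Each sequence is the 250 bases before the gene's start in RefSeq on GRCh38.p14, written 5′ to 3′ on the gene's strand. Capitals mark the letters of NRF1 (CGCNTGCGC), ETS (CCGGAAG) and YY1 (AAGATGGCG) on either strand.
NDUFB7 (chr19:14572067-14572316, minus strand): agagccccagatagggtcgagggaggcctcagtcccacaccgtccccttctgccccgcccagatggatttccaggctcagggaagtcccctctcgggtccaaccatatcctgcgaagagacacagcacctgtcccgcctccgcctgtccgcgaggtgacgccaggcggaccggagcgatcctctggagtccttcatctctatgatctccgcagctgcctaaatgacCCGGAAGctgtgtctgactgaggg
UQCR11 (chr19:1605463-1605712, minus strand): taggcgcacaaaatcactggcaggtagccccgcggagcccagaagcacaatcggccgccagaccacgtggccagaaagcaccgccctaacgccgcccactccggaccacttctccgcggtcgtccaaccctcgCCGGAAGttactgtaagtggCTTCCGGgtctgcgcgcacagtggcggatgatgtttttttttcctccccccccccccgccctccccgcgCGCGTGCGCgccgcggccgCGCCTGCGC
SDHA (chr5:218070-218319, plus strand): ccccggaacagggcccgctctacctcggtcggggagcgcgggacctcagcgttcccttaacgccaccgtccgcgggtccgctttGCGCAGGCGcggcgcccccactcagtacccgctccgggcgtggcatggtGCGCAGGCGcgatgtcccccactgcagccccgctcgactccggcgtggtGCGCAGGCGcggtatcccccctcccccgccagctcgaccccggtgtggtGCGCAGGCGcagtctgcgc
NDUFC1 (chr4:139302552-139302801, minus strand): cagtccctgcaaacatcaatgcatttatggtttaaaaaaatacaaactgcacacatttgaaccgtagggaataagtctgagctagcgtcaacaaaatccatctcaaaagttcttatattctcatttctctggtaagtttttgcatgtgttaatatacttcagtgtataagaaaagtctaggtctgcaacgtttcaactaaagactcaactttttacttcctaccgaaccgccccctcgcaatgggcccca
NDUFV2 (chr18:9102449-9102698, plus strand): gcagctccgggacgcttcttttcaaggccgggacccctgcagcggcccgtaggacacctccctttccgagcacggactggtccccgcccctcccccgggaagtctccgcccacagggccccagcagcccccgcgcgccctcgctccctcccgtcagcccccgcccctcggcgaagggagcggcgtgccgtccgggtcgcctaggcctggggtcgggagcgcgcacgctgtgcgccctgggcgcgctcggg
SDHA held 4 NRF1 matches, UQCR11 held 2 NRF1 and 2 ETS matches, and NDUFB7 held 1 ETS match. NDUFC1 and NDUFV2 held none of the 3 motifs. Members that stood higher in heat shock could lack them as well, as ATP5F1E, NDUFB8 and COX7A2 did. UQCR11 is thus only an example, and whether the matches go with the direction in heat shock was not tested.

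Promoters from 250 bases before to 50 bases after the start were found for 64 of the 78 members and for 15382 of the genes on the arrays. The NRF1 letters were in 32.8% of the members' promoters and in 11.2% of all promoters. The ETS letters were in 28.1% of the members' and 14.4% of all, and the YY1 letters in 10.9% of the members' and 2.76% of all. A match is a description and no site, and in 5 members a match overlapped another match of the same or another of these 3 motifs. The CCAAT box (CCAAT) was as frequent in the members (35.9%) as in all genes (36.1%). A heat shock element searched as GAANNTTC, a pair of facing half-sites, was in 3 of the 64 members' windows (4.69%) and in 5.56% of all.

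The deposited values are log2 of the MAS5 signal of each array, so a difference of 1 is a doubling. Of the 78 members, 69 lay in the brightest quartile of all probe sets (a mean log2 signal of at least 8.65). The 9 others were the 6 tissue-restricted isoforms, both pseudogenes and ATP5MF, subunit f of the synthase, which stood here on a dim probe set in the lowest quartile. All 11 T cell markers measured, CD3D, LCK and ZAP70 among them, lay above the median signal of all probe sets, as did 2 of 5 myeloid and 2 of 5 B cell markers. CD2, CD28 and TRAT1 of the T cell list fell in heat shock. One array stood apart, nsEP replicate 3, which lay at 172.64 on the second principal component against -62.63 to 30.58 for the 8 others. Its 3′ over 5′ log2 difference of GAPDH was 0.56, against -0.22 to 0.26 on the others, while that of ACTB was 1.24 there and 0.31 to 1.26 on the others. Poly-A control transcripts of bacterial genes (24 probe sets) averaged 9.89, 10.02 and 11.16 log2 units on nsEP arrays 1, 2 and 3, 11.16, 11.07 and 11.69 on the heat shock arrays and 10.74, 9.74 and 10.36 on the sham arrays. The controls were thus highest on nsEP replicate 3 and on the heat shock arrays, and their part in the results was not tested.

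In nsEP against sham, the OXPHOS genes were close to level. No member was called higher or lower at an adjusted p under 0.05 (limma, Benjamini-Hochberg over all 54613 probe sets), and 0 of 78 reached an unadjusted p under 0.05, which 2.49% of all genes did upward and 2.91% downward. Over all genes, 0.0506% were called higher and 0.0101% lower in this comparison. The ratio was above 0 for 58 members and below 0 for 20, with a median log2 ratio of 0.10 against -0.02 over all genes and -0.03 over all genes of the brightest quartile. For the 67 structural subunits in the brightest quartile, the 95% intervals of the log2 ratio lay between -0.64 (lower bound of NDUFB7) and 0.74 (upper bound of NDUFA9), so smaller shifts of single subunits could not be told at this number of arrays.

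The median of 0.10 was small and depended on single arrays. Set against each gene's mean over the sham arrays, the 69 bright members had medians of 0.02, -0.09 and 0.31 on nsEP replicates 1, 2 and 3, against 0.03, -0.14 and 0.11 on the sham arrays. Replicates 1 and 2 lay within the sham range, and replicate 3 lay above it. It was the highest nsEP array for 56 of the 69. Without it the median over the 78 members was -0.05, with 31 above 0 and 47 below, against -0.06 over all genes. It was 0.02 without sham replicate 2 (45 above 0 and 33 below), with quantile normalization and with the poly-A controls.

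**Figure D1:**
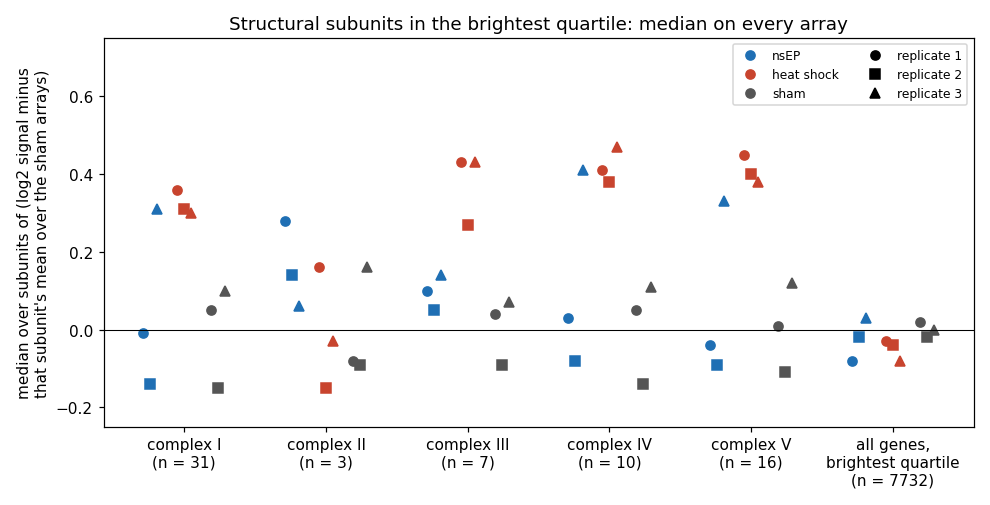
Median over the structural subunits of each complex that lie in the brightest quartile, on every array, of the log2 signal minus the same gene's mean over the sham arrays. In complexes I, IV and V the heat shock arrays lie from 0.30 to 0.47 and nsEP replicate 3 from 0.31 to 0.41, while the other nsEP arrays lie from -0.14 to 0.03; under arrays scaled to the poly-A controls the heat shock members' median turns negative (-0.65).

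Among the core members, UQCRC1, core protein 1 of complex III, had log2 signals of 12.55, 12.54 and 12.72 in nsEP, against 12.52, 12.41 and 12.40 in sham. It was the only one of 78 members whose nsEP arrays all lay above its sham arrays, which held for 4.56% of all genes, and 0 members had them all below (5.41% of all genes). The UQCRC1 ratio of 0.16 ± 0.14 (SE) was far from the threshold (adjusted p = 0.901). SDHC, a cytochrome b anchor of complex II, had 12.29, 12.27 and 11.99 in nsEP and 11.86, 11.84 and 12.09 in sham. Here nsEP replicate 3 lay below the highest sham array, and the ratio was 0.25 ± 0.14 (adjusted p = 0.799). Other SDHC probe sets in the brightest quartile differed in sign, at 0.10 ± 0.13, -0.31 ± 0.18, 0.35 ± 0.22 and -0.01 ± 0.17. The most negative ratio of a bright member was that of ATP5IF1, the inhibitor that binds the synthase when the membrane potential is lost, at -0.47 ± 0.35. Its arrays read 12.52, 11.28 and 12.18 in nsEP and 12.62, 12.81 and 11.97 in sham, a spread within each group wider than the difference (adjusted p = 0.859). Its other probe sets gave -0.04 ± 0.14 and -0.01 ± 0.17. These 3 genes were picked for their values. The rest of the subunits named whatever their values gave 0.03 (NDUFV1), 0.05 (NDUFS1), -0.07 (NDUFS3), -0.14 (NDUFB8), -0.10 (SDHA) and 0.12 (SDHD). In complexes III and IV they gave -0.03 (UQCRC2), 0.14 (CYC1), 0.13 (COX4I1), 0.01 (COX5A), 0.11 (COX6A1), -0.01 (COX6C) and 0.18 (COX7A2). In complex V they gave 0.09 (ATP5F1A), 0.14 (ATP5F1B), 0.07 (ATP5F1C), -0.01 (ATP5PO), 0.07 (ATP5MC1), 0.11 (ATP5MC2) and -0.06 (ATP5MC3).

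In heat shock against sham, most members stood higher, and none by enough to be called. Over all genes, 1.72% were called higher and 3.99% lower; among the 78 members 0 were called in either direction, the smallest adjusted p being 0.0644. At an unadjusted p under 0.05, 38 members were higher and 2 lower, against 10.7% and 11.3% of all genes. The ratio was above 0 for 72 of 78, with a median of 0.38 against 0.14 over all genes and -0.05 over all genes of the brightest quartile. In 48 members all 3 heat shock arrays lay above all 3 sham arrays, which held for 17.5% of all genes and 17% of those in the brightest quartile, and in 2 members they all lay below, against 13.7% of all genes and 27.2% of those in the brightest quartile.

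The size of this shift depended on how the arrays were scaled, and its sign turned only with the poly-A controls. Those controls themselves ran from 9.74 to 10.74 within the sham group and from 9.89 to 11.16 within the nsEP group. Whether equal amounts of them were added to each RNA is not stated, so that scaling is only an alternative. The median over the members was 0.14 with quantile normalization, 0.07 with the arrays centred on their medians (53 members above 0 and 25 below) and -0.65 with the arrays scaled to the poly-A controls (2 above and 76 below), a scaling under which all genes shifted to a median of -0.89. Relative to the genes of the brightest quartile, the 69 bright members stood 0.42 higher as deposited and 0.14 higher with quantile normalization. Centring and the poly-A scaling move every gene of an array by 1 amount, so this distance is the same under them by construction. By complex, quantile normalization gave medians of 0.18 (I), 0.05 (II), 0.23 (III), 0.03 (IV) and 0.03 (V) over the structural subunits, so under it complexes IV and V stood level with sham. Centring, which shifts all complexes alike, gave 0.03 (I), -0.34 (II), 0.17 (III), 0.14 (IV) and 0.08 (V). The order of the complexes thus depended on the scaling.

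**Figure D2:**
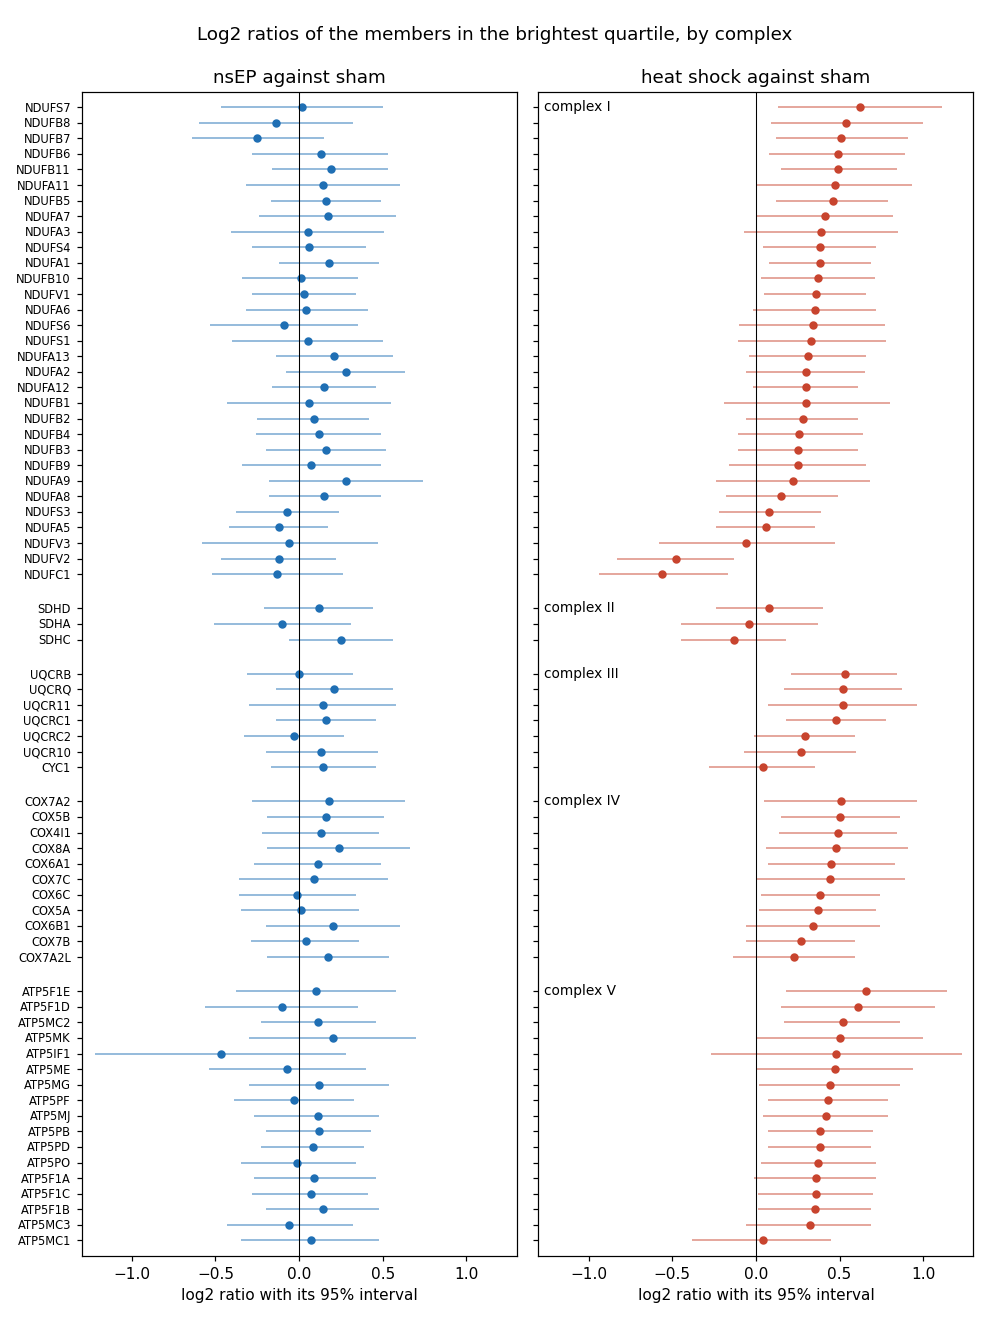
Log2 ratio (points) with its 95% interval (lines) of the 69 members in the brightest quartile, for nsEP against sham (left) and heat shock against sham (right), by complex and ordered within it by the heat shock ratio. Heat shock ratios lie right of 0 for 64 of 69 members, with NDUFC1 and NDUFV2 at -0.56 and -0.48; with the arrays scaled to the poly-A controls the median over all members is -0.65.

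Complex I takes electrons from NADH. Its 31 members had a median heat shock ratio of 0.33, with 28 above 0. Of its catalytic core, NDUFS7, the iron-sulfur subunit next to the quinone site, had 12.01, 11.62 and 12.04 in heat shock and 11.36, 11.05 and 11.41 in sham, so the groups did not overlap, and the ratio was 0.62 ± 0.22 (adjusted p = 0.16). NDUFV1, which binds NADH, had 12.63, 12.67 and 12.47 in heat shock and 12.24, 12.13 and 12.33 in sham, again without overlap (0.36 ± 0.14, adjusted p = 0.204). NDUFS3, a core subunit of the quinone module, had 12.94, 12.78 and 12.81 in heat shock and 12.75, 12.62 and 12.90 in sham, and these groups overlapped (0.08 ± 0.14, adjusted p = 0.805). NDUFS1, the largest iron-sulfur subunit, overlapped too, with a ratio of 0.33 ± 0.21. Other NDUFS1 probe sets in the brightest quartile had the opposite sign, at -0.27 ± 0.17 and -0.17 ± 0.19. Among the accessory subunits of the membrane arm, NDUFB8, a subunit often used as a sign of assembled complex I, had 13.68, 13.49 and 13.73 in heat shock and 13.26, 12.86 and 13.15 in sham (0.54 ± 0.21, adjusted p = 0.192).

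NDUFC1, NDUFV2 and NDUFV3 were the 3 members of complex I with ratios below 0. NDUFV3, a small accessory subunit of the NADH module, stood close to level (-0.06), and a second probe set of it gave -0.85 ± 0.26 (adjusted p = 0.102). NDUFC1, an accessory membrane arm subunit, had 13.05, 12.47 and 12.75 in heat shock, against 13.44, 13.19 and 13.31 in sham. All heat shock arrays lay below all sham arrays, and the ratio was -0.56 ± 0.18 (adjusted p = 0.115). NDUFV2, an iron-sulfur protein that forms the NADH-oxidising module with NDUFV1, had 12.49, 12.13 and 12.31 in heat shock, against 12.91, 12.73 and 12.73 in sham. Its groups did not overlap either (-0.48 ± 0.16, adjusted p = 0.126). NDUFC1 and NDUFV2 were called lower with the arrays centred on their medians (NDUFC1 -0.86, adjusted p = 0.0109; NDUFV2 -0.79, adjusted p = 0.00932) and with the arrays scaled to the poly-A controls (adjusted p = 0.0315 and 0.04). NDUFC1 was also called with quantile normalization (-0.70, adjusted p = 0.0262). A second, dimmer probe set of NDUFC1 gave -0.21 ± 0.33.

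Complex II oxidises succinate and belongs to the citric acid cycle as well. Its 3 members stood level in heat shock, with a median of -0.04. SDHA, the flavoprotein, had 11.07, 10.58 and 10.84 in heat shock and 10.79, 10.76 and 11.05 in sham, and the groups overlapped. The 95% interval of its ratio ran from -0.45 to 0.37, and its upper bound lay near the medians of the other complexes. SDHC gave -0.13 ± 0.14 and SDHD, the other anchor, 0.08 ± 0.15. With only 3 members and no test between complexes, complex II was not shown to differ from the others.

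Complex III passes electrons from quinol to cytochrome c. Its 7 members had a median heat shock ratio of 0.48, all above 0. UQCRB, which lies at the quinone site, came nearest to the threshold of all members, with 14.32, 14.19 and 14.28 in heat shock against 13.71, 13.65 and 13.86 in sham. The groups were well apart, at 1.44-fold (0.53 ± 0.14 on the log2 scale, adjusted p = 0.0644). UQCRC1 had 12.80, 13.10 and 12.88 in heat shock and 12.52, 12.41 and 12.40 in sham (0.48 ± 0.14, adjusted p = 0.0791). The second core protein, UQCRC2, had 13.53, 13.53 and 13.60 in heat shock and 13.30, 13.33 and 13.15 in sham (0.29 ± 0.14, adjusted p = 0.288). Neither core protein overlapped between the groups. CYC1, the cytochrome c1 subunit that hands electrons to cytochrome c, was the member of the complex closest to level, with 12.05, 12.02 and 11.72 in heat shock, 11.77, 11.95 and 11.96 in sham and a ratio of 0.04 ± 0.15.

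Complex IV, cytochrome c oxidase, reduces oxygen. All 10 of its ubiquitous nuclear subunits had heat shock arrays above all sham arrays, with ratios from 0.27 to 0.51 and a median of 0.45, against 17.5% of all genes without overlap in that direction. COX4I1, the ubiquitous form of subunit 4, had 14.32, 14.40 and 14.39 in heat shock and 13.89, 13.77 and 13.99 in sham (0.49 ± 0.16, adjusted p = 0.124). COX7A2, the ubiquitous form of subunit 7a, had 14.86, 14.94 and 15.06 in heat shock and 14.52, 14.24 and 14.56 in sham (0.51 ± 0.21, adjusted p = 0.22). COX5A, COX6A1 and COX6C gave 0.37 ± 0.16, 0.45 ± 0.17 and 0.38 ± 0.16. COX7A2L, named after subunit 7a but a factor that joins complexes into supercomplexes, overlapped between the groups (0.23 ± 0.17).

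The tissue-restricted isoforms, which are forms of other organs, lay outside the brightest quartile, and whether they were expressed here was not tested. COX4I2 (lung form), COX6A2 and COX7A1 (heart and muscle forms) and COX6B2, COX7B2 and COX8C (testis forms) had heat shock ratios from 0.26 to 1.73 with a median of 0.59 and nsEP ratios from -0.15 to 1.25 with a median of 0.10. None was called, and SEs reached 1.14 for COX8C, whose sham arrays alone ran from -0.32 to 4.34.

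**Figure D3:**
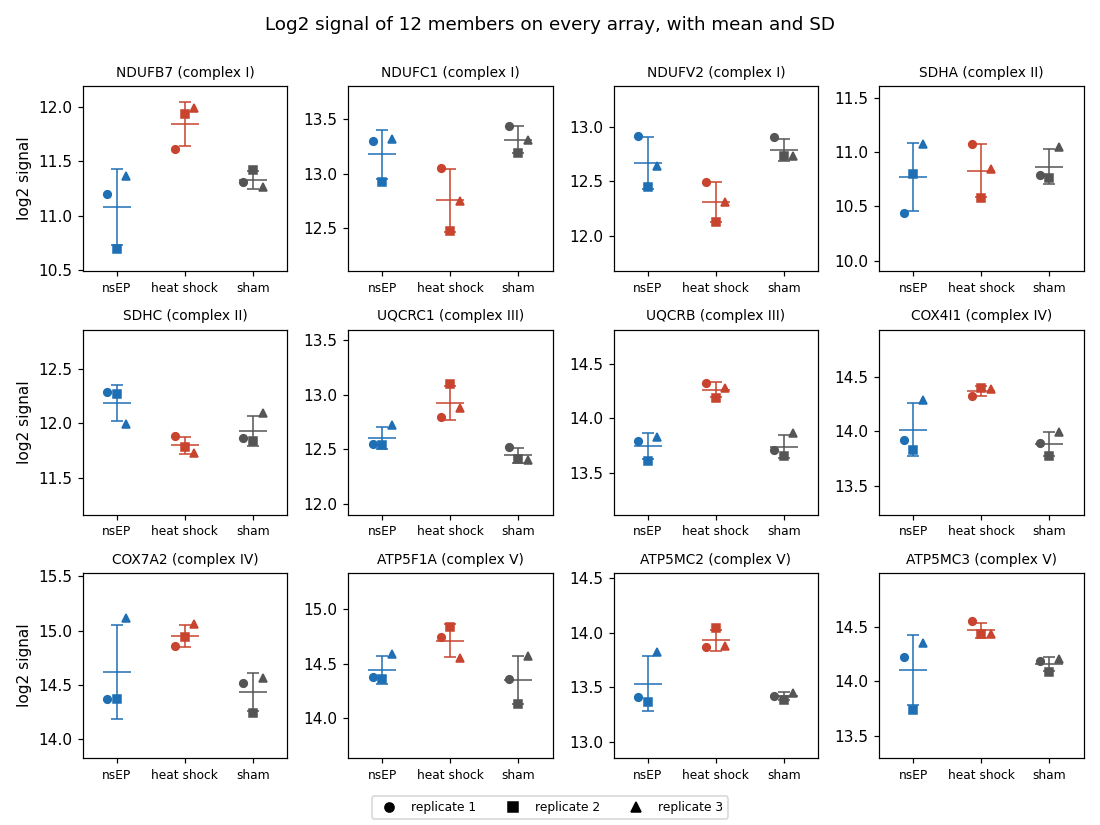
Log2 signal of 12 members on each array (circles, squares and triangles for replicates 1, 2 and 3), with the group mean and SD, for nsEP, heat shock and sham; every panel spans the same number of log2 units. UQCRB, UQCRC1 and COX4I1 stand higher on all heat shock arrays and NDUFC1 and NDUFV2 lower, and with the arrays scaled to the poly-A controls UQCRB (-0.50) and UQCRC1 (-0.55) change sign.

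Complex V makes ATP with a catalytic head, a central stalk, a rotor ring and a peripheral stalk. Its 17 structural subunits had a median heat shock ratio of 0.38, with 16 above 0 and 13 with all heat shock arrays above all sham arrays, against 17.5% of all genes. In the head, ATP5F1A (alpha) had 14.75, 14.84 and 14.55 in heat shock and 14.36, 14.13 and 14.57 in sham, which overlapped (0.36 ± 0.17, adjusted p = 0.29). ATP5F1B (beta) had 14.19, 14.37 and 14.14 in heat shock and 13.84, 13.78 and 14.04 in sham, which did not (0.35 ± 0.16, adjusted p = 0.26). In the central stalk the ratios were 0.36 ± 0.16 for ATP5F1C (gamma), 0.61 ± 0.21 for ATP5F1D (delta) and 0.66 ± 0.22 for ATP5F1E (epsilon), the last being the highest ratio of the 69 bright members. ATP5PO, the OSCP subunit that links the peripheral stalk to the head, gave 0.37 ± 0.16.

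The 3 genes of subunit c encode the same mature protein of the rotor ring behind different import sequences. ATP5MC2 had 13.87, 14.04 and 13.88 in heat shock, against 13.42, 13.38 and 13.45 in sham (0.52 ± 0.16, adjusted p = 0.0961). ATP5MC3 had 14.55, 14.43 and 14.43 in heat shock and 14.19, 14.08 and 14.20 in sham (0.32 ± 0.17, adjusted p = 0.369). ATP5MC1 had 12.46, 12.10 and 12.40 in heat shock and 12.05, 12.23 and 12.57 in sham (0.04 ± 0.19, adjusted p = 0.945). Groups were apart for ATP5MC2 and ATP5MC3 and overlapped for ATP5MC1, and no difference between the 3 genes was tested. ATP5IF1 had 13.00, 12.31 and 13.54 in heat shock and 12.62, 12.81 and 11.97 in sham, which overlapped (0.48 ± 0.35).

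The heat shock calls changed with the fit. Without nsEP replicate 3, which enters this comparison only through the shared estimate of the spread, 9 members were called higher: NDUFS7, NDUFB8, NDUFB11, UQCRC1, UQCRB, UQCRQ, COX4I1, ATP5F1E and ATP5MC2, while 2.42% of all genes were called higher in that fit. With probe sets under the median signal left out, UQCRC1, UQCRB, UQCRQ and ATP5MC2 were called higher (3.14% of the genes left), and array weights called the same 4 genes (2.57% of all genes). Markers of other cells moved in part with the group. Of 5 myeloid markers, CD14 was called higher in heat shock (4.78 ± 0.69, adjusted p = 0.00193), with 7.09, 6.69 and 7.42 against 1.26, 2.87 and 2.74 in sham. The ratio was above 0 for all 5, and in 3 all heat shock arrays lay above all sham arrays (17.5% of all genes). Over the 9 arrays CD14, LYZ and MPO had mean signals under the overall median of 6.33, which CD14 passed on the heat shock arrays. The summed myeloid signal was 8.30 to 8.48 log2 units in nsEP, 9.15 to 9.43 in heat shock and 8.25 to 8.44 in sham, and its part in the result was not tested.

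Lists of other abundant and mitochondrial genes were set beside the members in heat shock. Of 60 genes of cytosolic ribosomal proteins, 1 was called higher and 2 lower, with a median of 0.47. The medians were 0.23 over 34 proteasome subunits (0 called), 0.15 over 75 mitochondrial ribosomal proteins (0 higher, 2 lower) and 0.20 over 17 genes of the citric acid cycle and pyruvate dehydrogenase (0 called). A positive median was found in these housekeeping lists too. With quantile normalization the medians were 0.02 for the cytosolic ribosomal proteins, 0.06 for the proteasome, 0.18 for the mitochondrial ribosomal proteins and 0.17 for the citric acid cycle list. With centred arrays they were 0.17, -0.08, -0.15 and -0.10 in the same order, and with the poly-A controls all 4 were below 0.

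**Figure D4:**
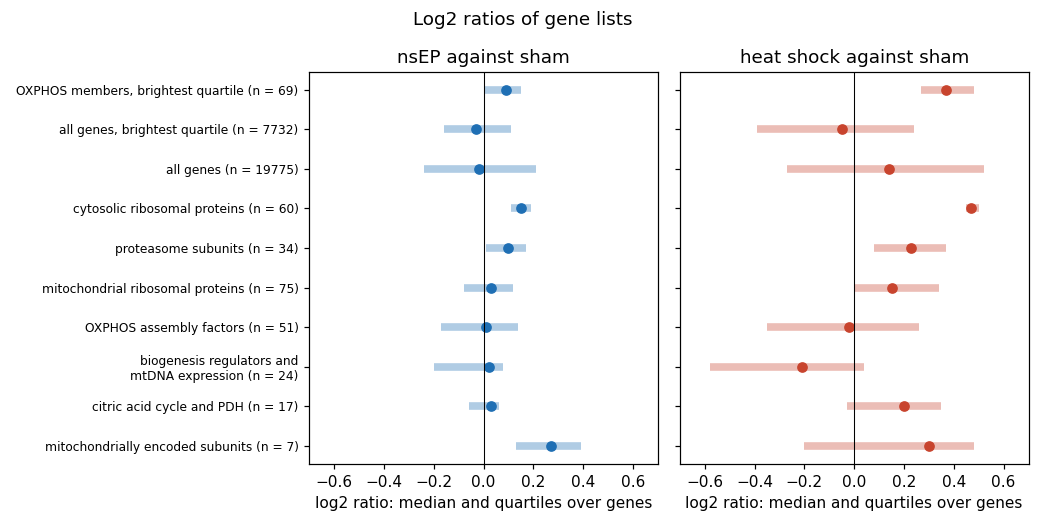
Median (points) and quartiles (bars) of the log2 ratio over the genes of each list, for nsEP against sham (left) and heat shock against sham (right). In heat shock the bright OXPHOS members have a median of 0.37, beside 0.47 for cytosolic ribosomal proteins and -0.21 for biogenesis regulators; medians shift with the scaling, to -0.65 for all 78 members with the poly-A controls.

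Genes that build or regulate the complexes were set beside 3.99% of all genes and 9.08% of those in the brightest quartile called lower in heat shock. Of 51 assembly factors, 1 rose and 3 fell, a count near that background. NDUFAF3, a complex I factor, rose (0.53 ± 0.13, adjusted p = 0.0427), a call that was lost with the arrays centred on their medians (0.23) and turned to -0.50 with the poly-A controls, and that ended in 8 of 9 fits with an array left out, the exception being the fit without nsEP replicate 3. SDHAF2, LYRM7 and COA7 fell. SDHAF2 inserts FAD into SDHA, and it had 8.67, 8.79 and 8.72 in heat shock against 9.72, 10.01 and 10.01 in sham (-1.19 ± 0.16, adjusted p = 0.000961). LYRM7, a chaperone of the iron-sulfur protein of complex III, had 11.02, 10.90 and 11.00 in heat shock against 12.07, 11.95 and 11.94 in sham (-1.01 ± 0.14, adjusted p = 0.00122). In both genes the groups lay far apart, and both calls held under the 3 scalings and without any 1 array. COA7, a cytochrome c oxidase assembly factor, gave -0.98 ± 0.18 (adjusted p = 0.00937; 0.0531 without sham replicate 2). The median over the 51 was -0.02.

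Of 24 regulators of mitochondrial biogenesis and of the expression of mitochondrial DNA, 3 fell in heat shock and 0 rose, with a median of -0.21, while 9.08% of all bright genes were called lower. TEFM, the elongation factor of mitochondrial transcription, had 9.32, 9.29 and 9.49 in heat shock against 10.58, 10.40 and 10.43 in sham (-1.10 ± 0.14, adjusted p = 0.000858). PPARGC1B, the coactivator PGC-1beta, had 9.41, 9.27 and 9.38 in heat shock against 10.49, 10.19 and 10.18 in sham (-0.93 ± 0.19, adjusted p = 0.0145). GFM1, an elongation factor of mitochondrial translation, gave -0.73 ± 0.15 (adjusted p = 0.0182). All 3 kept their call under the 3 scalings. TEFM also kept it without any 1 array, while the largest adjusted p with an array left out was 0.0686 for PPARGC1B and 0.0823 for GFM1. Of 25 genes of mitochondrial import and proteases, TIMM17A, a channel subunit of the inner membrane translocase, fell (-0.84 ± 0.16, adjusted p = 0.0109; 0.0527 without heat shock replicate 2). MFN1, which fuses mitochondria, fell as well (-0.96 ± 0.23, adjusted p = 0.0373), a call lost with quantile normalization (0.0638) and in 6 of 9 fits with an array left out, and 0 rose. None of these lists had a call in nsEP against sham.

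Of the mitochondrially encoded subunits, 7 were measured, 5 with a heat shock ratio above 0 and 2 below, with a median of 0.30. In 4 all heat shock arrays lay above all sham arrays (17.5% of all genes), and in 1 all lay below (13.7%). Their median was -0.17 with quantile normalization, 0.0 with centred arrays and -0.72 with the poly-A controls. Called lower was 1, against 3.99% of all genes, and called higher were 0, against 1.72%. ND6, the subunit read from the light strand, had 11.74, 11.82 and 12.41 in heat shock against 13.10, 13.45 and 13.48 in sham and fell (-1.35 ± 0.23, adjusted p = 0.00557), under the 3 scalings and without any 1 array too. COX1, the catalytic subunit of complex IV, had 15.40, 15.42 and 15.42 in heat shock and 15.02, 14.53 and 14.66 in sham, without overlap and without a call (0.67 ± 0.21, adjusted p = 0.0942). In nsEP, ND6 and COX1 gave -0.42 ± 0.23 and 0.57 ± 0.21 and neither was called.

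In nsEP against heat shock, 1 member was called lower and 0 higher, against 2.16% and 3.83% of all genes. This was NDUFB7, an accessory subunit of the membrane arm of complex I that faces the intermembrane space. It had 11.20, 10.69 and 11.36 in nsEP against 11.61, 11.93 and 11.99 in heat shock, and 11.31, 11.42 and 11.26 in sham. Every nsEP array lay below every heat shock array, at 0.59-fold (-0.76 ± 0.18 on the log2 scale, adjusted p = 0.0323). Its heat shock ratio against sham was 0.51 ± 0.18 and its nsEP ratio -0.25 ± 0.18, so values on both sides of sham made up the difference. A second, dimmer probe set gave -0.79 ± 0.35 (adjusted p = 0.234).

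The NDUFB7 call did not hold under every setting. It was lost without heat shock replicate 2 (adjusted p = 0.103), heat shock replicate 3 (0.128), nsEP replicate 1 (0.0514) or nsEP replicate 2 (0.119), and without the variance trend (0.162). With the arrays scaled to the poly-A controls its ratio was 0.19 and not called.

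Over the 78 members, 69 ratios of nsEP over heat shock were below 0, with a median of -0.31 against -0.14 over all genes and 0.03 over all genes of the brightest quartile. In 25 members all nsEP arrays lay below all heat shock arrays, against 14.4% of all genes. SDHC was the only member with all nsEP arrays above (10.7% of all genes), at 0.38 ± 0.14 (adjusted p = 0.162). Its other probe sets in the brightest quartile differed in sign, at 0.32 ± 0.13, -0.20 ± 0.18, 0.30 ± 0.22 and -0.10 ± 0.17. By complex the medians were -0.24 (I), 0.03 (II), -0.32 (III), -0.35 (IV) and -0.32 (V). Without nsEP replicate 3 the median was -0.41 and 13 members were called lower, NDUFB7, NDUFB8 (-0.94), NDUFS7 (-0.88), ATP5F1D (-0.93) and ATP5F1E (-0.80) among them, while 4.18% of all genes were called lower. With the arrays centred on their medians the members' median was 0.02 against 0.18 over all genes, and with the poly-A controls 0.64 against 0.81, so the members stood 0.16 below all genes under both, as they did before these scalings, which shift all genes alike.

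Other probe sets of the same genes gave a mixed picture. In 43 members 70 further probe sets were measured, 5 of which were called in heat shock against sham, where 4.17% of all probe sets were. Over the 58 of the 70 above the median signal, the heat shock ratio was above 0 for 38 and below 0 for 20, with a median of 0.18, and the nsEP ratio was above 0 for 26 and below 0 for 31, with a median of -0.02. A second bright probe set of UQCRB rose to 14.36, 14.18 and 14.37 in heat shock, against 13.61, 13.74 and 13.51 in sham (0.68 ± 0.17, adjusted p = 0.0482). A probe set of NDUFB6 with a mean log2 signal of 6.59 rose (1.44 ± 0.37, adjusted p = 0.0493). Probe sets of ATP5F1C (-1.61 ± 0.29, adjusted p = 0.00794), SDHC (-1.34 ± 0.33, adjusted p = 0.0406) and ATP5MC3 (-0.85 ± 0.20, adjusted p = 0.0347), with mean log2 signals of 7.35, 7.12 and 8.57, fell, against the sign of the bright probe sets of ATP5F1C and ATP5MC3. In nsEP against heat shock 4 of the 70 were called, against 4.96% of all probe sets, those of UQCRB (-0.82), NDUFB6 (-1.84) and ATP5MG (-0.64) lower and that of ATP5F1C (1.39) higher. Which transcripts these probe sets read was not tested.

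Many OXPHOS genes have pseudogenes of nearly the same sequence, and signal could not be assigned between them. Of the 69 bright members, 7 stood on a probe set whose name ends in x_at, a mark for probes that may bind other sequences, 34 on one ending in s_at and 28 on neither. The median heat shock ratios of these groups were 0.44, 0.38 and 0.36, and the median nsEP ratios 0.09, 0.08 and 0.12. SDHA, SDHC, COX4I1, COX7C, ATP5F1C, ATP5ME and ATP5MG stood on x_at probe sets.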

How the data were processed

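The authors hybridised 9 labelled RNA samples of Jurkat cells to Affymetrix HG-U133 Plus 2.0 arrays and deposited log2 values of the MAS5 signal, named in the submitters' processing notes without a version, in 1 table of 54675 probe sets. MAS5 reduces the probes of a set to 1 signal and puts every array on a shared trimmed mean, so the values are relative to the whole array and were not quantile normalized. Detection calls were not used here. Probe sets were named through the platform's annotation. Of the 54613 left after 62 control probe sets, 41091 named 1 gene and entered as genes, while 1801 with several names and 11721 with none listed did not.

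The test was limma 3.58.1 (R 4.3.3; lmFit, contrasts.fit, eBayes with a variance trend), fitted once to the 9 arrays with 1 mean per group. Tests were two-sided, and p-values of the 54613 probe sets were adjusted together by Benjamini-Hochberg. Replicate numbers were not used as pairs. An adjusted p under 0.05 made a call. Intervals are 95% intervals of the same fit. An exact permutation test of a single gene could not go below p = 0.1 with 3 arrays in each group, and the number of arrays limits the precision. The same script was tested on simulated data with known changes. Alternatives were other scalings, fits and filters, each array left out in turn, the mean over a gene's probe sets, structural subunits only and the methods' t-test.

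The text names every member past the threshold (up to 15 in each direction) and the tissue-restricted isoforms as a group. In the comparisons with sham it names a set list of core and other subunits whatever their values. It also names members whose probe sets disagree in sign where 1 is called, and up to 4 called genes of each other list. Other members named with values were chosen after their values were seen. The members and lists were chosen with earlier results of these data known. Promoters and gene positions come from RefSeq tables of GRCh38.p14. Summaries were made with Python 3.11.15 and pandas 2.3.3.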

Additional observations from a re-analysis of the deposited data

How the results depend on the processing

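In nsEP against sham no member was called under any alternative run, and the members' median was -0.05 without nsEP replicate 3, its range with 1 array left out being -0.05 to 0.17. In heat shock against sham, the count called higher was 3 with the 6 arrays of the comparison alone, 4 with dim probe sets left out, 4 with array weights, 2 with the mean over a gene's probe sets and from 0 to 9 with 1 array left out, the 9 being without nsEP replicate 3. The count called lower was 1 after quantile normalization, 2 after median centring and 2 with the poly-A controls. The median was 0.14, 0.07 and -0.65 under those 3 scalings and 0.32 to 0.41 with 1 array left out. Calls in either direction over everything tested changed too, from 2276 probe sets in the main fit. They were 2784 with the 6 arrays alone, 2717 with dim probe sets left out, 3317 with array weights and 3112 without nsEP replicate 3. With quantile normalization, median centring and the poly-A controls they were 2073, 4571 and 3762, and the mean over a gene's probe sets gave 869 genes. In nsEP against heat shock, the 1 called lower (NDUFB7) became 0 without the variance trend, with the 6 arrays alone, with arrays centred on their medians, with the poly-A controls and with the methods' t-test at the study's thresholds or after Benjamini-Hochberg adjustment. It became 4 with dim probe sets left out, 4 with array weights, 2 with the mean over a gene's probe sets and 0 to 13 with 1 array left out, the 0 being without heat shock replicates 2 or 3 or nsEP replicates 1 or 2 and the 13 without nsEP replicate 3. Centred arrays called 3 members higher. Over all probe sets, calls in either direction were 2707 in the main fit, 4792 when centred, 1920 with the poly-A controls and 1100 without the variance trend. They were 1882 with the 6 arrays alone, 3177 with dim probe sets left out, 3355 with array weights and 4018 without nsEP replicate 3. The mean over a gene's probe sets gave 931 genes. The members' median was -0.08 with quantile normalization, 0.02 when centred, 0.64 with the poly-A controls and -0.41 to -0.21 with 1 array left out. NDUFB7 had a ratio of 0.19 with the poly-A controls. The cause of these changes was not tested. Restricting the members to structural subunits or adding 32 signal units changed no count of calls. Same-numbered arrays correlated from -0.1601 to 0.2149 in their deviations from the group means, so the numbers were not taken as pairs. With the replicate number as a block, NDUFB7 gave -0.76 (adjusted p = 0.0413), the members' medians were 0.10 in nsEP against sham, 0.38 in heat shock against sham and -0.31 in nsEP against heat shock, and no call of a member changed. The scalings and left-out arrays for the other gene lists and for single complexes were chosen after seeing the data; among their called genes NDUFAF3 (-0.50, heat shock against sham) and SUCLG2 of the citric acid cycle list (0.32 against -0.63 as deposited, nsEP against heat shock) changed sign with the poly-A controls. The assembly factors called lower in heat shock, 3 as deposited, were 15 with centred arrays and 9 with the poly-A controls, and the biogenesis regulators, 3 as deposited, were 10 and 8. Calls over all probe sets in heat shock against sham, in either direction, were 2276 as deposited, 4571 with centred arrays and 3762 with the poly-A controls. The medians over all genes of the brightest quartile were -0.05, -0.36 and -1.08, so these counts changed together with those of the whole array. With dim probe sets left out 72 members were measured. MAS5 signals of dim probe sets scatter widely, which limits the isoforms and pseudogenes.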
